A study of Mus musculus with 7 samples.

Results

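The genes described here mark the passage of an oligodendrocyte precursor cell to a myelinating oligodendrocyte. They were taken from a list of 32 symbols in 3 stages: 7 precursor genes, 9 genes of committed, newly differentiating cells, and 16 genes of myelin and of the myelinating cell. Of these, 31 were among the 17422 genes of each library, and Opalin was not analysed here, so 15 myelin genes were measured. The list names the genes by symbol and sets no threshold on a value.

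Oligodendrocyte precursor cells divide and carry the PDGF-A receptor on their surface, and signalling through that receptor keeps them dividing. On leaving the cycle they pass through a short committed stage, marked by the receptor Gpr17 and the phosphodiesterase Enpp6, in which the transcription factors Sox10 and Myrf turn on the genes of the myelin sheath. The mature cell then fills its membrane with myelin proteins (Mbp, Mag, Mog, Mobp) and with galactolipids made by enzymes such as Ugt8a and Fa2h. Precursor genes are a known feature of gliomas of this lineage.

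The libraries came from 1 culture of neural progenitors and 2 groups of gliomas, with 3 labelled PDGF-B and 3 labelled EGFRvIII. All came from BALB/c embryonic neural precursors of embryonic day 14, grown with bFGF and EGF and infected with retroviruses that also carried the red fluorescent protein DsRed. In the labels, wild-type precursors received PDGF-B, a growth factor, and precursors lacking the Ink/Arf tumour suppressor locus (Ink/Arf -/-) received EGFRvIII, a constitutively active form of the EGF receptor. After 10 days, 20000 cells were grafted into the brain of adult BALB/c mice, and tumours taken at the first neurological symptoms were sorted for DsRed. The culture is wild type, carries PDGF-B, was sorted the same way and was never grafted. It is a single library. The glioma groups differ in oncogene and in genotype at once. The series calls the gliomas of each model independent tumours.

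The driver genes ran against the glioma labels. Egfr ranged from 3594 to 5109 CPM (read counts scaled to library size) over the PDGF-B-labelled gliomas and from 25.6 to 41.2 CPM over the EGFRvIII-labelled ones, and Pdgfb from 1.95 to 4.88 CPM and from 277 to 386 CPM. The culture held 282 CPM of Egfr and 245 CPM of Pdgfb. Cdkn2a, the gene of the Ink/Arf locus, averaged 3.82 ± 1.05 CPM with the label PDGF-B and 19.98 ± 7.84 CPM with the label EGFRvIII (SD, n = 3 each), against 10.7 CPM in the culture. Groups are therefore named by their labels only, every direction below refers to the label, and no library was moved. Depth was 32513754 to 39062584 reads per library. The mitochondrial share of CPM was 4.20% to 6.14% over the gliomas and 9.53% in the culture.

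Markers of other cell types were read beside the members, and their part in the results was not tested. The summed level of 20 microglia and macrophage genes ran from 624 to 2514 CPM over the PDGF-B-labelled gliomas and from 9031 to 20372 CPM over the EGFRvIII-labelled ones, against 23.1 CPM in the culture. The microglial markers Tmem119 and C1qa each had 1 read in the culture. Of 15 astrocyte genes only Apoe, which microglia also express, was called between glioma groups, at 367 to 2438 CPM labelled PDGF-B and 6981 to 11260 CPM labelled EGFRvIII. The other 14 summed to 2177 to 2613 CPM, to 1631 to 1799 CPM and, in the culture, to 2548 CPM. Slc1a2 weighed on that sum, at 656 to 1619 CPM labelled PDGF-B, 611 to 834 CPM labelled EGFRvIII and 190 CPM in the culture. The median over all 15, per kb of merged exons, was 2.71, 3.81 and 8.91 CPM in PDGF-B replicates 1 to 3. It was 5.13, 4.42 and 2.598 CPM in EGFRvIII replicates 1 to 3 and 26.1 CPM in the culture. Against the culture, limma called 3 of the 15 lower and 1 higher for each label. Endothelial genes (7 measured) summed to 4.78 to 30.2 CPM and mature neuron genes (13) to 153 to 415 CPM over the 7 libraries. The mitosis list of 15 genes summed to 1072 to 1604 CPM in 5 gliomas, 206 CPM in PDGF-B replicate 2 and 4055 CPM in the culture. In RNA from a whole sorted sample, fewer cells of a type and less RNA per cell cannot be told apart.

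Sequence before the transcription start is shown for a pair of members that the comparisons called and whose stretch holds no annotated exon. They are Itpr2, the inositol trisphosphate receptor type 2 and a gene higher in both glioma groups than in the culture, and Enpp6, a gene higher in the gliomas labelled PDGF-B than in those labelled EGFRvIII. Each shows the 250 bases before the start in the RefSeq table of GRCm38.p6, read 5′ to 3′ on the gene's strand. Neither overlaps an exon of the GENCODE M21 annotation. Capitals mark a match to a searched motif.
Itpr2, chr6:146502224-146502473, minus strand: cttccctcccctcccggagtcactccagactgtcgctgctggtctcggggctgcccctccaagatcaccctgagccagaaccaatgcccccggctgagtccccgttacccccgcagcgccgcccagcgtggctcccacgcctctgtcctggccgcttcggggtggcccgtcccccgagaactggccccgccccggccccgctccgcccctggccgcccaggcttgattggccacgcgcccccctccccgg
Enpp6, chr8:46986637-46986886, plus strand: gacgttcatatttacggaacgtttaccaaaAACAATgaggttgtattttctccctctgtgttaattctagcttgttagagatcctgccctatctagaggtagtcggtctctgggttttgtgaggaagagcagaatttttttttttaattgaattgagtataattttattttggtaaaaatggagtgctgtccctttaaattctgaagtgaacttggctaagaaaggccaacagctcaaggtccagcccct

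The motifs searched, on both strands, were CAGCTG (the letters bound by Olig2 and other basic helix-loop-helix factors), AACAAT and ACAAAG (Sox factors), CTGGNAC (Myrf) and CTTTGAT (Tcf7l2). The windows ran from 250 bases before to 50 after a start, and 24 of the 31 measured members had 41 windows in a table of 32851. CAGCTG lay in 24.4% of the members' windows and 16.3% of all windows. AACAAT lay in 12.2% and 10.7%, ACAAAG in 22.0% and 18.7%, CTGGNAC in 17.1% and 19.3%, and CTTTGAT in 4.88% and 3.73%. Enpp6 held 1 match, an AACAAT, and Itpr2 held none.

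The median level of the members fell from stage to stage in every library, the culture included, though single genes of different stages overlapped. The separate lists of further lineage genes, described below, did not show the fall from committed to myelin genes in every library. To compare genes of different length, CPM was divided by the length of the merged exons in kilobases. The median over the 7 precursor genes was 264, 364 and 136 CPM per kb in PDGF-B replicates 1 to 3 and 141, 117 and 98.5 CPM per kb in EGFRvIII replicates 1 to 3, but 5.91 CPM per kb in the culture. The median over the 9 committed genes was 31.1, 57.4 and 21.2 CPM per kb, then 17.3, 13.0 and 15.8 CPM per kb, and 3.86 CPM per kb in the culture. The median over the 15 myelin genes was 3.24, 4.42 and 1.95 CPM per kb, then 0.988, 3.77 and 4.49 CPM per kb, and 0.644 CPM per kb in the culture. Every glioma was above the culture at each stage.

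**Figure D1:**
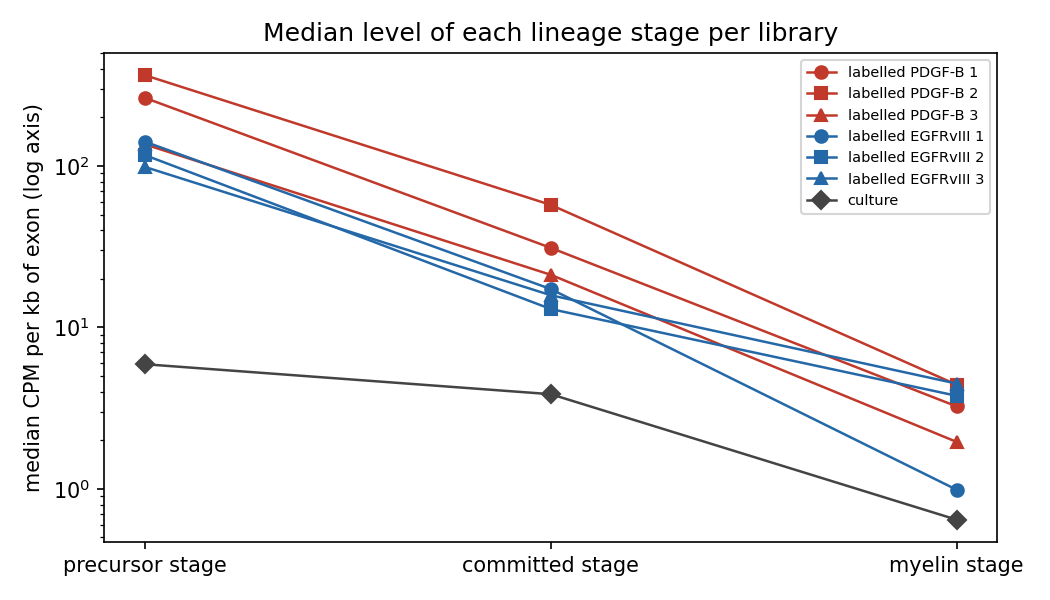
Median level of each stage (CPM per kb of merged exons, log axis) in the 7 libraries, with 1 point per library and stage. The precursor medians of the gliomas lie between 98.5 and 364, the committed medians between 13.0 and 57.4 and the myelin medians between 0.988 and 4.49, while the culture stands at 5.91, 3.86 and 0.644.

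The glioma groups did not overlap in the committed medians, at 36.5 ± 18.7 CPM per kb labelled PDGF-B and 15.4 ± 2.17 CPM per kb labelled EGFRvIII (SD, n = 3 each). They overlapped in the precursor medians, at 255 ± 114 and 119 ± 21.5 CPM per kb, and in the myelin medians, at 3.20 ± 1.23 and 3.08 ± 1.85 CPM per kb. The precursor median was 69.6 to 82.5 times the myelin median in the gliomas labelled PDGF-B. It was 143, 30.9 and 21.9 times the myelin median in EGFRvIII replicates 1 to 3, and 9.18 times in the culture. These ratios depend on the length used: per kb of the longest transcript they were 41.6 to 75.6 labelled PDGF-B, 80.3, 31.8 and 25.9 labelled EGFRvIII and 16.8 in the culture. The culture's precursor and committed medians were then 11.6 and 6.49 CPM per kb. No test was made of these medians over members.

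Abundance split the myelin genes in particular. All 7 precursor genes and 8 of the 9 committed genes, all but Enpp6, were at 10 CPM or more in all 6 gliomas. Of the 15 myelin genes, 6 reached that level in all 6 gliomas: Tspan2, Ugt8a, Cnp, Mbp, Cldn11 and Sirt2. Another 7 stayed under 10 CPM in all 6: Mag, Mog, Mal, Ermn, Aspa, Gjb1 and Gpr37. Mog, Mal, Ermn, Aspa and Fa2h fell under 1 CPM in at least 1 glioma.

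**Figure D2:**
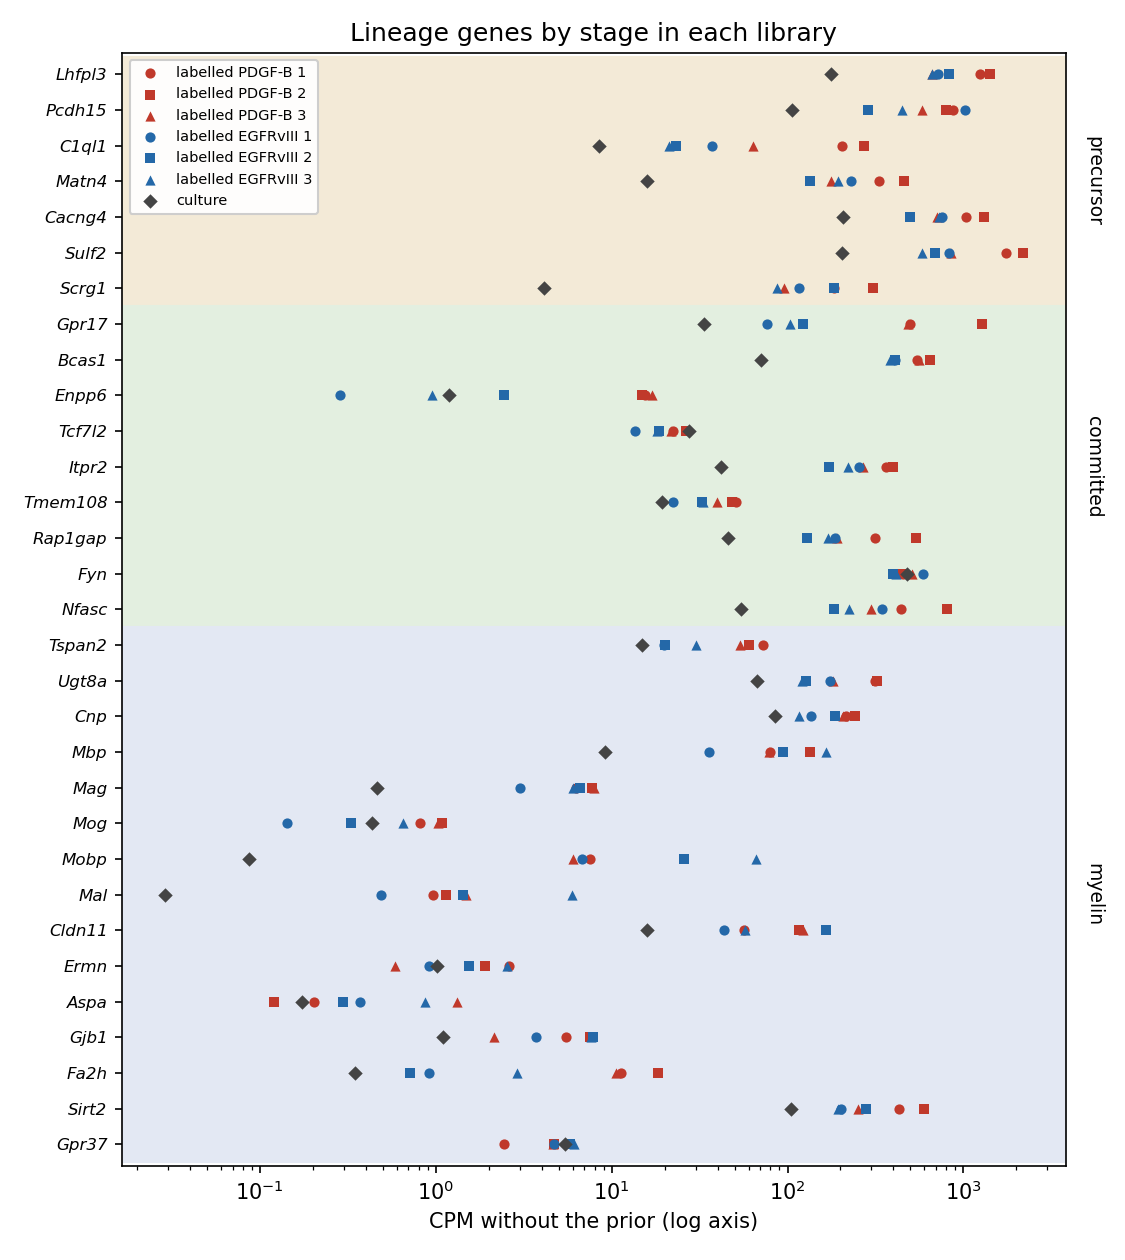
CPM without the prior count (log axis) of the 31 measured members in each of the 7 libraries, ordered by stage. Red and blue points are the gliomas labelled PDGF-B and EGFRvIII, and black diamonds the culture, which lies to the left of all 6 gliomas for 24 of the 31 members.

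Compared with the progenitor culture, gliomas of both labels held more RNA of most members, at all 3 stages. All 6 gliomas were above the culture for 24 of the 31 members, a position held by 27.8% of all genes. Only Tcf7l2 had all 6 gliomas below the culture, as had 24% of all genes. For the label PDGF-B, limma called 21 members higher than the culture and none lower, beside 7.73% of all genes called higher and 1.73% lower. For the label EGFRvIII it called 9 members higher and none lower, beside 8.2% of all genes called higher and 1.34% lower. At these shares a count of 0 lower is near the background. At an unadjusted p under 0.05 there were 25 and 20 members, beside 27.2% and 23.9% of all genes. The median log2 fold change of the members was 2.80 and 1.69, beside 0.04 and 0.01 over all genes. Of all calls against the culture, 85.9% were higher for the gliomas labelled EGFRvIII, and 72.8% with each library centred on its median gene, where 7 of the 9 members were called. Both comparisons use the same lone culture library, whose spread is unknown and is assumed to be that of the gliomas.

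All 7 precursor genes were called above the culture in the gliomas labelled PDGF-B, with log2 fold changes from 2.26 to 5.38, and 4 in those labelled EGFRvIII (Scrg1, Matn4, Lhfpl3 and Cacng4), where the 7 fold changes ran from 1.62 to 4.88. Scrg1 (chr8:57455923-57477585), a small secreted protein first found in scrapie-infected brain, stood at 185, 306 and 95.2 CPM in PDGF-B replicates 1 to 3 and at 116, 184 and 87.6 CPM in EGFRvIII replicates 1 to 3. The culture held 4.14 CPM, far below each of them. Its log2 fold change over the culture was 5.38 ± 0.64 (SE, limma adjusted p = 0.00401) and 4.88 ± 0.64 (SE, limma adjusted p = 0.00397).

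Lhfpl3, a membrane protein used as a marker of precursor cells, was at 1239, 1422 and 665 CPM labelled PDGF-B, at 714, 830.4 and 663 CPM labelled EGFRvIII, and at 178 CPM in the culture. Cacng4, a subunit that regulates AMPA-type glutamate receptors, was at 1031, 1303 and 709 CPM, at 752, 495 and 722 CPM, and at 206 CPM in the culture. Both genes stood above the culture in all 6 gliomas, and the glioma groups overlapped. Per kb, Lhfpl3 averaged 345 and 229 CPM in the glioma groups, the highest of the 31 members in each, against 55.3 CPM in the culture. In the gliomas labelled EGFRvIII these 2 calls were close to the threshold. The log2 fold change was 2.04 ± 0.44 for Lhfpl3 (SE, limma adjusted p = 0.0292), and the call ended without any 1 of the 3 gliomas (adjusted p from 0.0622 to 0.0719). For Cacng4 it was 1.65 ± 0.41 (SE, limma adjusted p = 0.0496), and the call ended without replicate 1 or replicate 3 (adjusted p of 0.114 and 0.120).

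C1ql1, a secreted C1q-like protein, followed the gliomas labelled PDGF-B. It was at 204, 274 and 63.2 CPM in those gliomas, at 37.0, 23.1 and 21.2 CPM labelled EGFRvIII and at 8.48 CPM in the culture. The glioma groups did not overlap. The log2 fold change over the culture was 4.16 ± 0.75 in the gliomas labelled PDGF-B (SE, limma adjusted p = 0.0173) and 1.62 ± 0.75 in those labelled EGFRvIII (SE, limma adjusted p = 0.243). Between the glioma groups it was 2.53 ± 0.53 and missed the threshold (SE, limma adjusted p = 0.0531).

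The remaining precursor genes were also above the culture in all 6 gliomas. Matn4, a matrix protein, ranged from 134 to 459 CPM over the 6 gliomas against 16.0 CPM in the culture, and was called in both comparisons (limma adjusted p of 0.00494 and 0.00708). Sulf2, a sulphatase that trims heparan sulphate, ranged from 578 to 2172 CPM against 204 CPM. Pcdh15, a cadherin-like protein, ranged from 286 to 1021 CPM against 106 CPM. Both were called for the gliomas labelled PDGF-B alone, and the difference between labels was not called for either.

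Among the committed genes, 6 of 9 were called above the culture in the gliomas labelled PDGF-B and 2, Bcas1 and Itpr2, in those labelled EGFRvIII. Bcas1 (chr2:170346991-170427845), a marker of newly formed, myelinating cells, varied little within each glioma group. It was at 541, 644 and 558 CPM labelled PDGF-B, at 409.9, 409 and 381 CPM labelled EGFRvIII and at 70.8 CPM in the culture. Its log2 fold change over the culture was 3.03 ± 0.24 (SE, limma adjusted p = 0.00154) and 2.50 ± 0.24 (SE, limma adjusted p = 0.00134). Itpr2, a calcium channel of the endoplasmic reticulum whose sequence is given above, ranged from 173 to 400.2 CPM in the gliomas against 41.7 CPM, with log2 fold changes of 3.02 ± 0.33 and 2.36 ± 0.33 (SE, limma adjusted p of 0.00327 and 0.00515).

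Rap1gap, which switches off the small GTPase Rap1, ranged from 129 to 538 CPM in the gliomas against 45.8 CPM in the culture. Nfasc, an adhesion molecule of the axon-glia contact, ranged from 184 to 811 CPM against 54.6 CPM, and Tmem108, a membrane protein, from 22.3 to 51.1 CPM against 19.4 CPM. These 3 and Gpr17 complete the committed genes called in the gliomas labelled PDGF-B. Fyn and Tcf7l2 stood apart from the rest of the stage.

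Fyn, a kinase that acts early in oligodendrocyte maturation, was at 454, 441 and 507 CPM labelled PDGF-B, at 587, 398 and 413 CPM labelled EGFRvIII and at 480.1 CPM in the culture. The culture lay inside the range of both glioma groups, and neither difference kept its sign under every alternative: it was 0.078 for PDGF-B on library totals and 0.036 for EGFRvIII without replicate 2. The log2 differences were -0.04 ± 0.31 (labelled PDGF-B against the culture) and -0.07 ± 0.31 (labelled EGFRvIII against the culture, SE). Tcf7l2, a transcription factor of Wnt signalling needed for the final step of maturation, was at 22.3, 26.5 and 21.7 CPM, at 13.6, 18.5 and 18.1 CPM and at 27.5 CPM in the culture. It was chosen for these values after they were seen. The culture exceeded all 6 gliomas, and neither difference was called (limma adjusted p of 0.652 and 0.191).

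Of the 15 myelin genes, 8 were called above the culture in the gliomas labelled PDGF-B: Mag, Fa2h, Tspan2, Ugt8a, Mobp, Cnp, Mbp and Sirt2. In those labelled EGFRvIII, 3 were called: Mag, Mobp and Mbp. These 3 calls ended with a pseudocount of 5 CPM (adjusted p of 0.0897, 0.167 and 0.0710) and with precision weights on the recovered reads (voom, adjusted p of 0.0698, 0.284 and 0.133), which left no myelin gene called for this label. For PDGF-B, the Mobp call ended with pseudocounts of 0.5 and 5 CPM (adjusted p of 0.0750 and 0.310), and those of Mbp and Sirt2 with 5 CPM (adjusted p of 0.0624 and 0.0603). With voom, 6 of the 8 calls ended for that label, all but Tspan2 and Ugt8a (adjusted p from 0.0534 for Mag to 0.315 for Mobp). Mag (chr7:30899176-30914873), an adhesion protein of the inner myelin membrane, was at 6.29, 7.70 and 7.96 CPM labelled PDGF-B, at 3.00, 6.61 and 6.05 CPM labelled EGFRvIII and at 0.463 CPM, 16 reads, in the culture. All 6 gliomas were above the culture, at levels far below those of the precursor genes. Over the culture its log2 fold change came to 3.82 ± 0.54 (SE, limma adjusted p = 0.00725) and 3.26 ± 0.54 (SE, limma adjusted p = 0.0105).

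Sirt2, a deacetylase abundant in myelin, was at 431, 598 and 252 CPM labelled PDGF-B, at 202, 279 and 194 CPM labelled EGFRvIII and at 105 CPM in the culture. Cnp, the enzyme CNPase of non-compact myelin, was at 216, 243 and 208 CPM, at 136, 187 and 117 CPM and at 84.7 CPM. Cldn11, the tight junction protein of myelin, was at 56.7, 116 and 122 CPM, at 43.3, 165 and 57.6 CPM and at 15.8 CPM. Every glioma was above the culture for the 3 genes. Sirt2 and Cnp were called for the gliomas labelled PDGF-B (limma adjusted p of 0.0453 and 0.0321) and Cldn11 for neither label (limma adjusted p of 0.0774 and 0.117). Ugt8a, which makes the galactolipids of myelin, ranged from 121 to 323 CPM in the gliomas against 67.2 CPM in the culture.

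Mbp and Mobp, the abundant structural proteins of compact myelin, were chosen for fuller description after their values were seen. Mbp was at 79.5, 135 and 78.4 CPM labelled PDGF-B, at 36.0, 94.8 and 165 CPM labelled EGFRvIII and at 9.12 CPM in the culture. Mobp was at 7.57, 25.9 and 6.02 CPM, at 6.77, 25.8 and 66.4 CPM and at 0.0868 CPM, 3 reads, in the culture. Both rose above the culture in all 6 gliomas. The ratio of the Mobp mean to the culture was 152 labelled PDGF-B (95% counting interval of the culture's reads, 51.9 to 735) and 380.0 labelled EGFRvIII (130.0 to 1843). These intervals cover counting error only. For Mbp the log2 fold change was 3.36 ± 0.75 and 3.17 ± 0.75 (SE, limma adjusted p of 0.0344 and 0.0408). The Mbp call ended without PDGF-B replicate 1 or 2 (adjusted p of 0.0691 and 0.0732) and, for the other label, without EGFRvIII replicate 2 or 3 (adjusted p of 0.0911 and 0.0650).

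Mal, a lipid raft protein of compact myelin, had 1 read in the culture and was at 0.961, 1.15 and 1.48 CPM labelled PDGF-B and at 0.488, 1.43 and 5.94 CPM labelled EGFRvIII. Aspa, which splits N-acetylaspartate, was at 0.204, 0.121 and 1.32 CPM, at 0.373, 0.299 and 0.872 CPM and at 0.174 CPM in the culture, 4 to 47 reads per library. Mog, the glycoprotein of the outer myelin surface, was at 0.816, 1.09 and 1.04 CPM, at 0.143, 0.329 and 0.654 CPM and at 0.434 CPM. Mog is named here after its values were seen. All 3 genes were near 1 CPM or under it in most libraries, and none was called in any comparison. Ermn, a cytoskeletal protein of late oligodendrocytes, ranged from 0.588 to 2.62 CPM in the gliomas against 1.01 CPM in the culture. Gjb1, the gap junction protein connexin 32, ranged from 2.16 to 7.83 CPM against 1.10 CPM, and Gpr37, a receptor that restrains maturation, from 2.45 to 6.13 CPM against 5.41 CPM. These 3 were called in no comparison.

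**Figure D3:**
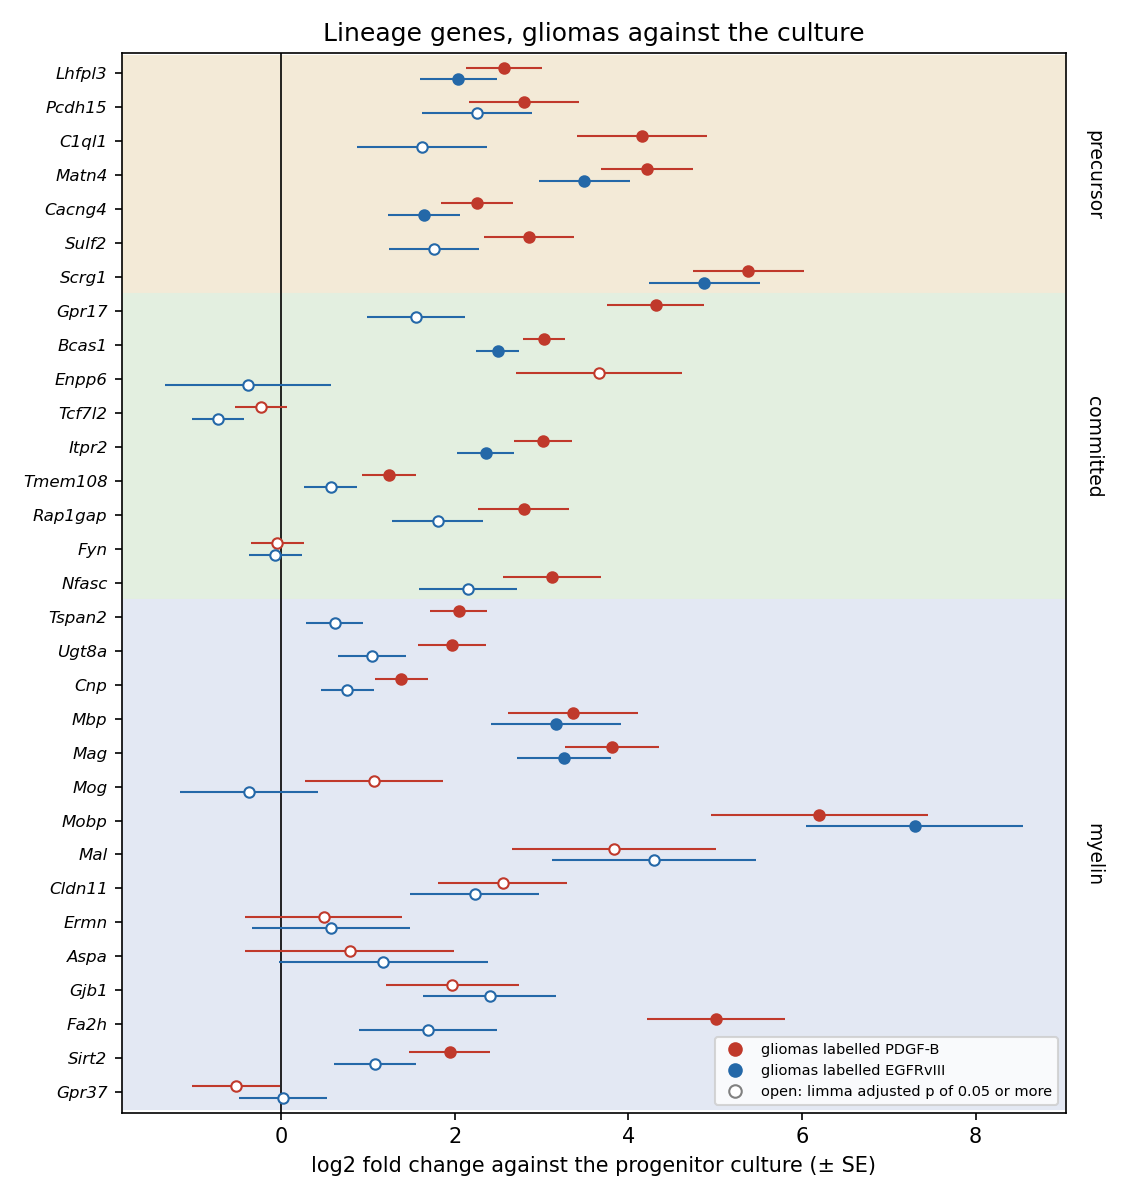
Log2 fold change over the culture (horizontal axis, bars show the SE) of each measured member, ordered by stage, for the gliomas labelled PDGF-B (red) and EGFRvIII (blue); open points have a limma adjusted p of 0.05 or more. Filled points number 21 in red and 9 in blue, all right of 0, and both colours share the lone culture library.

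The counts of called members depended on single libraries. Without PDGF-B replicate 1 the 21 calls fell to 12, and the calls of Cacng4, Sulf2, Pcdh15, Rap1gap, Tmem108, Ugt8a, Cnp, Mbp and Sirt2 ended (adjusted p from 0.0504 to 0.146). Without PDGF-B replicate 2 those of Pcdh15, Tmem108, Ugt8a, Cnp, Mbp and Sirt2 ended, with 15 left, and without any 1 glioma labelled EGFRvIII 6 or 7 of the 9 calls were kept. With voom 12 and 4 members were called. Calls over all genes fell in these fits too. For PDGF-B they went from 1647 to 854 without replicate 1, 1054 without replicate 2 and 553 with voom. For EGFRvIII they went from 1663 to 1084, 1612 and 1058 without replicates 1 to 3 and to 721 with voom.

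Between the glioma groups, the members were higher rather than lower labelled PDGF-B. The fold change was positive for 25 of 31, with a median log2 of 0.61 beside 0.00 over all genes. Limma called 4 members higher (Gpr17, Enpp6, Tspan2 and Fa2h) where it called 0.717% of all genes higher. It called none lower, where it called 2.63% of all genes lower. At that share a count of 0 lower is near the background. The groups did not overlap, with PDGF-B higher, for 14 members, an arrangement found for 10.3% of all genes. With PDGF-B lower it was found for no member and for 12.6% of all genes. At an unadjusted p under 0.05 there were 15 members, and 16.7% of all genes. The 4 called genes belong to the committed stage and to myelin, and no precursor gene was called. That split hangs on the threshold. The precursor gene C1ql1 (log2 fold change 2.53 ± 0.53, SE, limma adjusted p = 0.0531) was called with a pseudocount of 0.5 CPM (limma adjusted p = 0.0470). It was also called without PDGF-B replicate 3 (limma adjusted p = 0.00277).

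Gpr17 (chr18:31942997-31949636), the receptor that marks the committed stage and holds cells there, was at 498, 1267 and 482 CPM in PDGF-B replicates 1 to 3, at 76.8, 123 and 103 CPM in EGFRvIII replicates 1 to 3 and at 33.7 CPM in the culture. The lowest glioma labelled PDGF-B was above the highest labelled EGFRvIII, and all 6 were above the culture. The log2 fold change between labels was 2.76 ± 0.40 (SE, limma adjusted p = 0.0257). Over the culture it was 4.32 ± 0.56 labelled PDGF-B (SE, limma adjusted p = 0.00562) and 1.56 ± 0.56 labelled EGFRvIII, which was not called (SE, limma adjusted p = 0.142).

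Enpp6 (chr8:46986887-47096762), the choline phosphodiesterase of newly differentiating cells whose upstream bases are shown above, was at 15.4, 14.9 and 17.1 CPM labelled PDGF-B, at 0.287, 2.45 and 0.954 CPM labelled EGFRvIII and at 1.19 CPM in the culture. The gliomas labelled EGFRvIII lay on both sides of the culture. The log2 fold change between labels was 4.05 ± 0.67 (SE, limma adjusted p = 0.0312). Against the culture it was 3.67 ± 0.96 labelled PDGF-B (SE, limma adjusted p = 0.0563) and -0.38 ± 0.96 labelled EGFRvIII (SE, limma adjusted p = 0.859).

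Tspan2 (chr3:102734529-102801513), a tetraspanin found early in myelin, was at 72.4, 60.1 and 53.8 CPM labelled PDGF-B, at 19.8, 19.98 and 30.3 CPM labelled EGFRvIII and at 14.9 CPM in the culture. Fa2h (chr8:111345135-111393824), the fatty acid 2-hydroxylase of myelin lipids, was at 11.3, 18.4 and 10.5 CPM, at 0.918, 0.717 and 2.92 CPM and at 0.347 CPM. For both genes the glioma groups did not overlap, and the culture was below all 6 gliomas. The log2 fold change between labels was 1.43 ± 0.23 for Tspan2 (SE, limma adjusted p = 0.0309) and 3.31 ± 0.55 for Fa2h (SE, limma adjusted p = 0.0312). Over the culture both were called labelled PDGF-B (limma adjusted p of 0.0112 and 0.0107) and neither labelled EGFRvIII (limma adjusted p of 0.307 and 0.249).

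**Figure D4:**
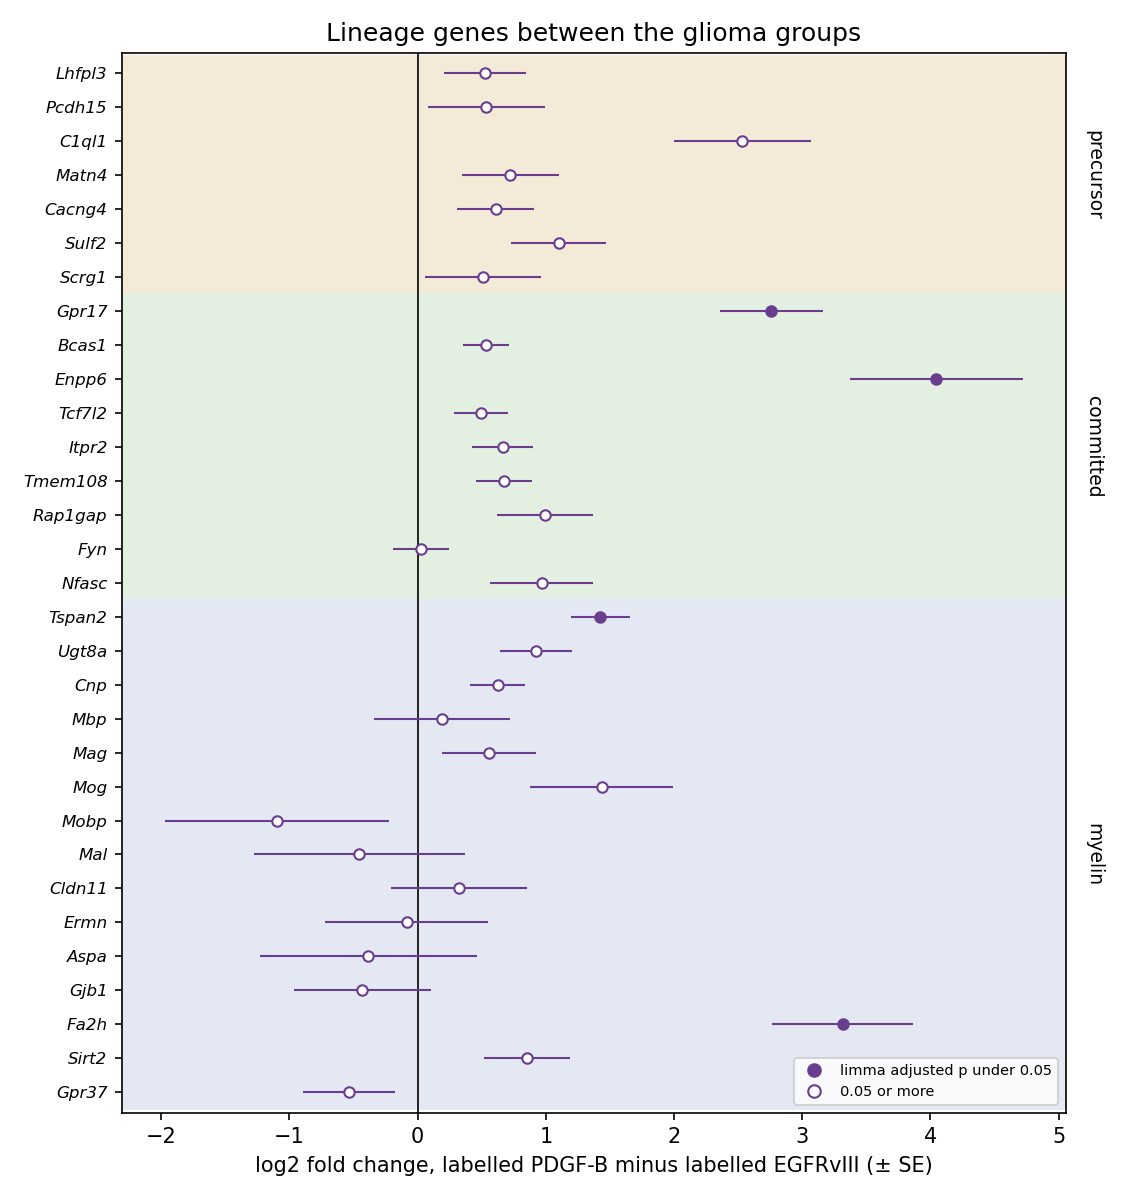
Log2 fold change of each measured member, labelled PDGF-B over labelled EGFRvIII (horizontal axis, bars show the SE), ordered by stage; the 4 filled points are the members called by limma. Enpp6 at 4.05, Fa2h at 3.31 and Gpr17 at 2.76 are the largest, and Mobp at -1.09 is the lowest.

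Several later myelin proteins did not follow these 4. Mbp averaged 97.5 ± 32.2 CPM labelled PDGF-B and 98.5 ± 64.5 CPM labelled EGFRvIII, and Mobp 13.2 ± 11.1 and 33.0 ± 30.5 CPM (SD, n = 3 each). The groups overlapped for both, as they did for Mal, Cldn11, Ermn, Aspa and Gjb1, and the log2 differences were 0.19 ± 0.53 for Mbp (SE, limma adjusted p = 0.866) and -1.09 ± 0.87 for Mobp (SE, limma adjusted p = 0.559). Mag, at 7.31 ± 0.896 and 5.22 ± 1.94 CPM, also overlapped (log2 0.55 ± 0.37, SE, limma adjusted p = 0.488). For Mog, Ugt8a and Cnp, by contrast, every glioma labelled PDGF-B was above every one labelled EGFRvIII. None of them was called (limma adjusted p of 0.255, 0.147 and 0.204), and Mog had 5 to 37 reads per glioma. A p above the threshold does not show that the levels are alike.

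The same 20 microglia and macrophage genes were all lower in every glioma labelled PDGF-B than in any labelled EGFRvIII, and 18 of them were called lower. Their part in the differences of the members was not tested. The 4 calls rested on all libraries but 1: without PDGF-B replicate 3, 9 members were called, and without any other single glioma none was (6 to 14 at an unadjusted p under 0.05). Calls over all genes moved likewise, from 583 to 1282 without PDGF-B replicate 3 and to 4 to 21 without any other. In these fits the log2 fold change stayed at 2.30 to 3.00 for Gpr17, 3.31 to 4.74 for Enpp6, 1.31 to 1.63 for Tspan2 and 2.94 to 3.91 for Fa2h. Without PDGF-B replicate 3 the added members were Sulf2, Sirt2, Ugt8a, Rap1gap and C1ql1.

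Gliomas of one label also differed among themselves along the lineage. Among those labelled PDGF-B, replicate 2 was the highest for 21 of the 31 members (35.2% of all genes) and replicate 3 the lowest for 22 (38.4% of all genes), including all 7 precursor genes. Replicate 2 is the glioma with the low mitosis sum, 206 CPM, and replicate 3 has the highest microglia and macrophage sum of its group, 2514 CPM. Replicate 3 also has the highest astrocyte median of its group, 8.91 CPM per kb. The part of any of these in the order was not tested.

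Among those labelled EGFRvIII, replicate 1 was the highest for 5 of the 7 precursor genes (29.8% of all genes) but the lowest for 10 of the 15 myelin genes (32.5% of all genes). Replicate 3 was the highest for 9 of the 15 myelin genes (29.1% of all genes). The spread was largest for Mal, 12.2-fold between replicates 1 and 3, and Mobp and Mbp had the same order of the 3 libraries. Aspa spread 10.9-fold among the gliomas labelled PDGF-B, where replicate 3 was the highest.

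**Figure D5:**
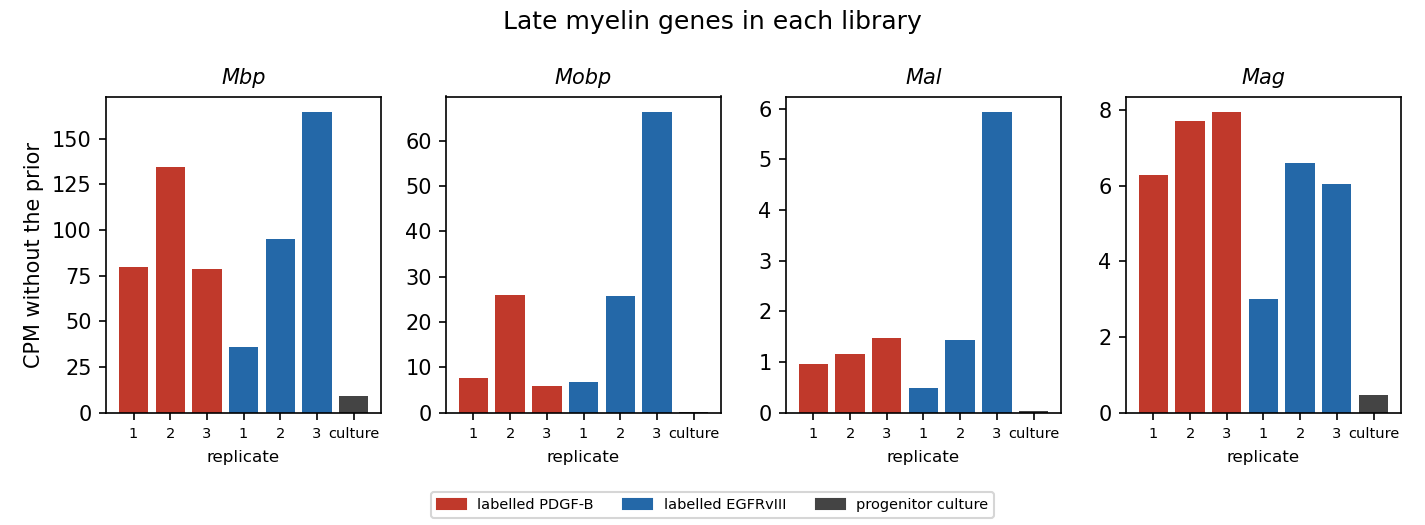
CPM without the prior count of Mbp, Mobp, Mal and Mag in each library (bars from 0, a separate scale for each gene). EGFRvIII replicate 3 has the highest Mbp, Mobp and Mal of the 7 libraries, at 165, 66.4 and 5.94 CPM, and EGFRvIII replicate 1 the lowest Mbp and Mag of the gliomas, at 36.0 and 3.00 CPM.

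Other genes of the lineage, from lists separate from the members, were read the same way. Of 19 further precursor genes, 1 was called higher labelled PDGF-B than labelled EGFRvIII, beside 0.717% of all genes. The median log2 fold change between labels was 0.64. Against the culture 10 were called higher labelled PDGF-B and 7 labelled EGFRvIII, and none lower. Over all genes 7.73% and 8.2% were called higher and 1.73% and 1.34% lower. The rise was not shared by all 19. Log2 fold changes over the culture ran from 0.07 to 8.80 labelled PDGF-B and from -0.15 to 6.28 labelled EGFRvIII. All gliomas of the label were above the culture for 17 and 14 of the 19. The share of all genes in that position was not computed for single labels. With all 6 gliomas above the culture it was 27.8%. Olig2, named after its values were seen, was the lowest labelled EGFRvIII, at 415 to 557 CPM against 555 CPM in the culture. Pdgfra, the receptor that defines the precursor, was at 3825, 4797 and 1738 CPM labelled PDGF-B, at 1904, 1402 and 1773 CPM labelled EGFRvIII and at 408 CPM in the culture. Cspg4, the NG2 proteoglycan, was at 1108, 1326 and 761 CPM, at 615, 604 and 744 CPM and at 101 CPM. Every glioma stood above the culture for both genes. Over the culture, Cspg4 was called for both labels (limma adjusted p of 0.00318 and 0.00435) and Pdgfra for PDGF-B (limma adjusted p of 0.020 and 0.066).

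Sox10, the transcription factor of the whole lineage, was at 692, 1059 and 604 CPM, at 422, 711 and 537 CPM and at 87.7 CPM in the culture, and was called for both labels (limma adjusted p of 0.00596 and 0.00826). The precursor gene called between labels was Neu4, a sialidase, at 150.3, 233 and 81.4 CPM labelled PDGF-B and at 13.8, 1.14 and 2.07 CPM labelled EGFRvIII (log2 fold change 5.43 ± 0.87, SE, limma adjusted p = 0.0309). Its level in the culture was 0.261 CPM, 9 reads.

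Of 15 further committed genes, 2 were called higher labelled PDGF-B than labelled EGFRvIII: Bmp4, a growth factor made by newly committed cells (limma adjusted p = 0.0245), and Mycl (limma adjusted p = 0.0441). Over all genes 0.717% were called higher. Bmp4 was at 2.50, 3.70 and 5.18 CPM labelled PDGF-B, at 0.172, 0.418 and 0.327 CPM labelled EGFRvIII and at 0.261 CPM in the culture. Its gliomas labelled EGFRvIII lay on both sides of the culture, as they did for Enpp6. Against the culture 5 of the 15 were called higher labelled PDGF-B and 1, Zfp488, a zinc finger factor of the lineage, labelled EGFRvIII. Over all genes it was 7.73% and 8.2%, so 1 of 15 is near the background. The median log2 fold change over the culture was 0.87 and 0.13. Unlike the committed members, these genes did not have a median above the culture in every glioma. It was 6.31, 6.51 and 4.61 CPM per kb labelled PDGF-B, 4.03, 4.84 and 3.72 labelled EGFRvIII and 4.63 in the culture. Labelled EGFRvIII, all gliomas were above the culture for 6 of the 15 and below it for 4. The shares of all genes in these positions were not computed for single labels.

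Of 22 further myelin genes, 4 were called higher labelled PDGF-B than labelled EGFRvIII (Myrf, Cryab and Tmem88b among them) and 1 lower (Evi2a, named after its value was seen). Over all genes 0.717% were called higher and 2.63% lower. Against the culture 12 of the 22 were called higher labelled PDGF-B and 6 labelled EGFRvIII, beside 7.73% and 8.2% of all genes. Their median log2 fold change over the culture was 2.13 and 1.10, with a range from -4.61 to 5.45 and from -4.35 to 8.90. Myrf, the transcription factor that switches on the myelin genes, was at 27.4, 50.9 and 37.3 CPM labelled PDGF-B, at 4.22, 5.74 and 11.6 CPM labelled EGFRvIII and at 4.39 CPM in the culture (log2 fold change between labels 2.50 ± 0.41, SE, limma adjusted p = 0.0312). The glioma groups did not overlap. Over the culture Myrf was called labelled PDGF-B (limma adjusted p = 0.0214) and not labelled EGFRvIII (limma adjusted p = 0.620). The median over the 22 was 5.81, 7.16 and 7.93 CPM per kb labelled PDGF-B, 4.96, 6.15 and 5.10 labelled EGFRvIII and 2.52 in the culture. Unlike in the members, it exceeded the median of the 15 further committed genes in every glioma but PDGF-B replicate 1. Per kb of the longest transcript, EGFRvIII replicate 3 was a further exception, at 5.64 against 5.94.

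Exons of another annotated gene cover part of the exons of 11 members, more than 10% of the exon bases for 3 of them: Lhfpl3, Tmem108 and Bcas1, each with a gene on the opposite strand. The strand setting of the counting was not given in the sources used here. Reads of these pairs may then not be told apart.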

How the data were processed

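STAR, edgeR and mm10 are named without versions in the submitters' processing notes; quantifier, scaling and gene filter were not given in the sources used here. Deposited values are log2 CPM of 17422 Ensembl genes, per the file headers of all files but the one of EGFRvIII replicate 3, which names no unit. The lowest value, -4.12, and the steps between low values fit estimated counts with a prior of 2, so reads were recovered, and CPM is printed without the prior. Symbols, coordinates and exon lengths came from GENCODE M21 (GRCm38, the assembly of mm10), with a symbol for 17254 IDs and none for 168.

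Limma 3.58.1 in R 4.3.3 was run on the deposited values of all genes, with an intensity trend and robust moderation. P-values were adjusted by Benjamini-Hochberg over all genes, and genes were called under 0.05. The glioma comparison used 6 libraries, and the comparisons with the culture all 7 in 3 groups, each with 4 residual degrees of freedom. Fold changes are differences of deposited log2 values and understate those of genes with few reads. A count of 3 reads corresponds to 0.0818 to 0.0909 CPM.

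The members, lists and tests were chosen with earlier results of these data known. All members are named. Values in every library are given for members called between glioma groups, the 3 of each stage highest per kb, the smallest p of each stage and comparison, and members spreading over 10-fold within a group; at most 3 called genes of each other list are named, with lineage landmarks, of which 1 is not reported here. The fits were checked on simulated data, in which the culture was given the spread of the gliomas, so that assumption was not checked. Alternatives covered scaling, pseudocounts, a CPM minimum, moderation, voom, a replicate block, other groups in the fit, an adjusted p of 0.01 and fits without each glioma.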

Additional observations from a re-analysis of the deposited data

How the results depend on the processing

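Of the 4 members called between glioma groups, 1 (Gpr17) was called without trend and robust moderation, and none with the replicate block (14 at an unadjusted p under 0.05) or at an adjusted p of 0.01; leaving out 1 glioma gave 0 to 9. The count stayed at 4 or 5 under the other alternatives. Whether the replicate numbers pair the gliomas is not known. Deviations of same-numbered libraries correlated at 0.185, -0.0445 and -0.107, and not every library correlated best with its own number. Deviations from a mean of 3 libraries are tied to each other, so these values cannot decide on a pairing. Under the block 18 genes in all were called, against 583. That total was 224 without trend, 7 at 0.01, and 4, 7, 1282, 21, 15 and 7 without PDGF-B replicates 1 to 3 and EGFRvIII replicates 1 to 3. Adjusted p ranged over the alternatives from 0.00894 to 0.10 for Gpr17, 0.0141 to 0.108 for Enpp6, 0.0197 to 0.114 for Tspan2 and 0.0196 to 0.122 for Fa2h.

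Against the culture, the 21 members called for PDGF-B became 12 with voom, 12 with only the groups compared (10 of them among the 21), 6 at 0.01 and 12 to 22 with 1 glioma left out. The 9 called for EGFRvIII became 5 with a pseudocount of 5 CPM, 4 with voom, 4 at 0.01 and 6 to 8 with 1 glioma left out (6 or 7 of them among the 9). Over all genes, 1647 calls for PDGF-B became 1021 with a pseudocount of 5 CPM, 553 with voom, 721 with only the groups compared, 854 and 1054 without PDGF-B replicates 1 and 2, and 507 at 0.01. The 1663 calls for EGFRvIII became 721 with voom, 1084 and 1058 without EGFRvIII replicates 1 and 3, and 704 at 0.01. The share of calls that were higher moved from 81.7% to 59.9% (pseudocount of 5 CPM) and 62.6% (voom) for PDGF-B, and from 85.9% to 72.8% (median centred), 67.9% (pseudocount of 5 CPM) and 69.1% (voom) for EGFRvIII. The median fold change of all genes moved to 0.13 between gliomas and -0.20 for EGFRvIII against the culture when median centred, and to 0.15 for PDGF-B against the culture on library totals. The cause of these moves was not tested.

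Stage levels as a median instead of a mean log2 CPM moved, for EGFRvIII gliomas, from 8.06 to 8.82 (precursor), 6.22 to 7.32 (committed) and 3.37 to 2.72 (myelin), for PDGF-B gliomas from 7.46 to 8.45 (committed) and 3.82 to 3.38 (myelin), and for the culture from 5.53 to 6.73, 5.13 to 5.38 and 1.42 to 0.21. Per kb of the longest transcript, the EGFRvIII medians moved from 119 to 144 (precursor) and 15.4 to 20.2 (committed), the PDGF-B myelin median from 3.20 to 4.72, and the culture from 5.91 to 11.6 (precursor) and 3.86 to 6.49 (committed). That length for the stage ratios, the astrocyte sum without Apoe, and the Slc1a2 levels and astrocyte median given beside it, were chosen after seeing the data. So were that length for the further committed genes and the medians of the further myelin genes.

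Signs turned for members that were not called. With 1 glioma left out, the log2 fold change between gliomas ran from -0.077 to 0.20 for Fyn, -0.41 to 0.69 for Mbp, -1.27 to 0.46 for Mal, -0.069 to 0.90 for Cldn11, -0.50 to 0.52 for Ermn, -1.27 to 0.20 for Aspa and -0.80 to 0.088 for Gjb1. Ermn was also at 0.041 median centred, 0.0037 on library totals and 0.0033 with a pseudocount of 5 CPM, and Aspa at 0.0033 with that pseudocount. Against the culture, Aspa ran from -0.097 to 1.37 for PDGF-B, and for EGFRvIII Enpp6 ran from -1.08 to 0.36, Fyn from -0.24 to 0.036, Mog from -0.82 to 0.093 and Gpr37 from -0.059 to 0.13. Fyn was at 0.078 for PDGF-B on library totals, and Gpr37 at -0.19 for EGFRvIII median centred. The lone culture library could not be left out. Genes of few reads (Mog, Mal and Aspa, and Mobp in the culture) are limited by depth.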
